A study of Rattus norvegicus with 20 samples.

Results

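The genes described here carry out N-glycosylation, the transfer of a preassembled sugar chain onto asparagine residues of proteins entering the secretory pathway, and the first branching of that chain in the Golgi. The family holds 10 genes (Tusc3, Magt1, Stt3a, Stt3b, Rpn1, Rpn2, Ddost, Dad1, Mgat1 and Mgat2), taken by symbol from an array in which 13292 genes could be tested. All 10 passed the filter on missing values. The family was chosen by a readout: Tusc3 stood out as low in rats with spasms when these data were first looked at. The values of Tusc3 in that comparison are therefore given as a description with no test, and so are those in the other comparisons that use the same spasm samples.

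The samples were hypothalamic arcuate nuclei of 20 male Sprague-Dawley rats killed on postnatal day 15, 4 rats in each of 5 groups. SNS rats had prenatal saline, no spasms and postnatal saline. BNS rats had prenatal betamethasone, a synthetic corticosteroid given to the dam, no spasms and postnatal saline. BYS, BYA and BYP rats also had prenatal betamethasone, then repeated N-methyl-D-aspartic acid (NMDA), which triggered spasms, and were treated with saline (BYS), the pituitary hormone ACTH (BYA) or PMX53, an antagonist of the complement receptor C5ar1 (BYP). All spasm groups shared betamethasone and NMDA, so the effects of these agents cannot be told apart against SNS, and those of NMDA and of the spasms cannot be told apart against BNS. The tissue was a dissected piece of hypothalamus. A lower level in such a piece cannot separate fewer cells of a type from less RNA per cell.

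Values are log2 spot intensities after subtraction of the sample median, and a difference of 1 is a 2-fold difference. Each array carried 2 samples, 1 labelled Cy3 and 1 labelled Cy5, and both came from the same group except on the arrays of SNS replicates 1 and 2, whose other sample was not used here. BNS, BYS, BYA and BYP each lay on 1 slide of their own, so slide and group cannot be told apart for them, and SNS spanned 2 slides. The number of spots with a value ran from 34107 to 44249 of 44254 per sample. SNS replicate 2 is labelled Cy5, but its spot values correlated with the Cy3 samples (mean r = 0.24) and not with the Cy5 samples (mean r = -0.26), so its dye label is in doubt. Of 14 genes that mark the arcuate nucleus 13 were measured, with a median level at percentile 87 of all genes. Npy, Agrp, Sst and Pomc lay at percentile 97.3 or above, but Kiss1, Prlr and Esr1 lay at 34.8, 18.2 and 0.0715. Markers of other hypothalamic nuclei had a median at percentile 46.9, with Pmch among them at 97.4.

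N-glycosylation starts in the endoplasmic reticulum, where the sugar chain is built on the lipid dolichol and handed to the oligosaccharyltransferase (OST) complex. Stt3a and Stt3b are its alternative catalytic subunits: complexes with Stt3a act on proteins as they pass through the translocon, and those with Stt3b reach sites that were missed. Rpn1, Rpn2, Ddost and Dad1 are subunits common to both complexes. Tusc3 and Magt1 are alternative thioredoxin-like subunits of the Stt3b complex and have also been linked to magnesium uptake. Loss of TUSC3 in humans causes intellectual disability. Mgat1 and Mgat2 act in turn in the Golgi and turn the trimmed chain into a hybrid and then a complex glycan.

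Tusc3 was low in all 4 BYS samples, at 2.01, 2.37, 1.98 and 2.39 for replicates 1 to 4. The BNS samples read 4.06, 4.46, 3.89 and 4.60, so that the groups did not overlap. The share of all genes without overlap was not computed in any comparison. The BYP samples read 4.05, 4.39, 3.88 and 4.38, and overlapped BNS. SNS, at 4.00, 4.05, 3.103 and 3.56, lay above every BYS sample. Replicates 3 and 4 of SNS, which shared an array, were the lowest of the samples without spasms.

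The BYA group was split by array. Replicates 1 and 2, from one array, read 3.76 and 4.24, whereas replicates 3 and 4, from the other, read 2.11 and 2.55, the first within the range of the BYS samples and the second just above it. The means of the BYA arrays differed by 1.67, against 0.01 between the BYS arrays, 0.01 between the BNS arrays and 0.09 between the BYP arrays. Within an array, the Cy5 sample was above the Cy3 sample in all 9 arrays with both samples used here, by 0.34 to 0.71. Both samples of an array thus lay at one level of Tusc3, and the array on which a BYA sample was hybridized went with its value.

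**Figure D1:**
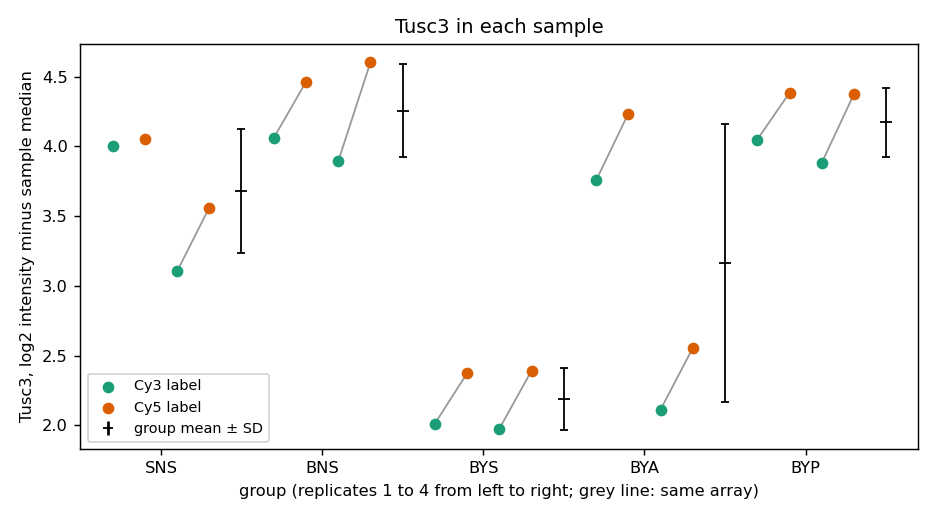
Tusc3 in each of the 20 samples, as log2 intensity minus the sample median, with replicates 1 to 4 of each group from left to right, coloured by dye label; grey lines join samples of 1 array and black bars give the group mean ± SD (n = 4). The BYS samples and BYA replicates 3 and 4 sit between 1.98 and 2.55, and all other samples at or above 3.103.

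The group means of Tusc3 were 3.68 ± 0.44 in SNS, 4.26 ± 0.33 in BNS, 2.19 ± 0.23 in BYS, 3.16 ± 1.00 in BYA and 4.17 ± 0.25 in BYP (SD, n = 4 each). BNS and BYP, at the top of this order, differed by less than their spread (BYP minus BNS -0.08 ± 0.33, SE, limma adjusted p = 1.00). In the model with dye as a term and array as a random block, BYS was 2.07 ± 0.33 below BNS on the log2 scale, a 4.19-fold lower level, and the difference from SNS was -1.55 ± 0.31. BYP was 1.99 ± 0.33 above BYS, and BYA was 0.98 ± 0.33 above BYS. These differences involve the samples that led to the choice of the gene and are given without a test. With slide in place of array as the random block the SE of BYS minus BNS was 0.54.

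Comparisons without BYS samples were tested, although BNS was the other side of the comparison in which Tusc3 was noticed. BYA was lower than BNS by 1.09 ± 0.33 (SE), which did not pass the test over all genes (limma, adjusted p = 0.24). Without the array of BYA replicates 3 and 4 the difference was -0.26 ± 0.22. That array and the array of SNS replicates 3 and 4 were left out after seeing the data, and both held low values of Tusc3. Differences without them follow in part from that choice and are given without a test. BYP exceeded BYA by 1.01 ± 0.33 (limma, adjusted p = 0.93), and by 0.18 ± 0.22 without the array of BYA replicates 3 and 4. BNS exceeded SNS by 0.51 ± 0.31 (limma, adjusted p = 0.45), and by 0.23 ± 0.35 without the array of SNS replicates 3 and 4. The remaining comparisons with SNS gave -0.58 ± 0.31 for BYA and 0.43 ± 0.31 for BYP (limma, adjusted p = 0.36 and 0.56). The excess of BYA over BYS was 1.81 ± 0.22 without the array of BYA replicates 3 and 4.

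Tusc3 was read by 1 spot. Spots lie on the array in 85 columns, and 46 spots with a value in every sample and a level in the same class as Tusc3 (lowest, middle or highest of 3 equal classes of spots) lay within 7 rows and 7 columns of it. For each of these spots the mean over the samples of a dye was subtracted, and the median of the 46 deviations was taken in each sample. This median lay between -0.73 and -0.43 in the 4 BYS samples, at -0.35 and -0.24 in BYA replicates 3 and 4, and between -0.015 and 0.38 in the other samples. The Tusc3 spot itself deviated by -1.33 to -1.27 in the BYS samples, by -1.17 and -1.15 in BYA replicates 3 and 4, and by -0.18 to 0.90 elsewhere. The samples in which Tusc3 was low were thus the samples in which its neighbours, spots for other genes, were low, by a smaller amount.

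**Figure D2:**
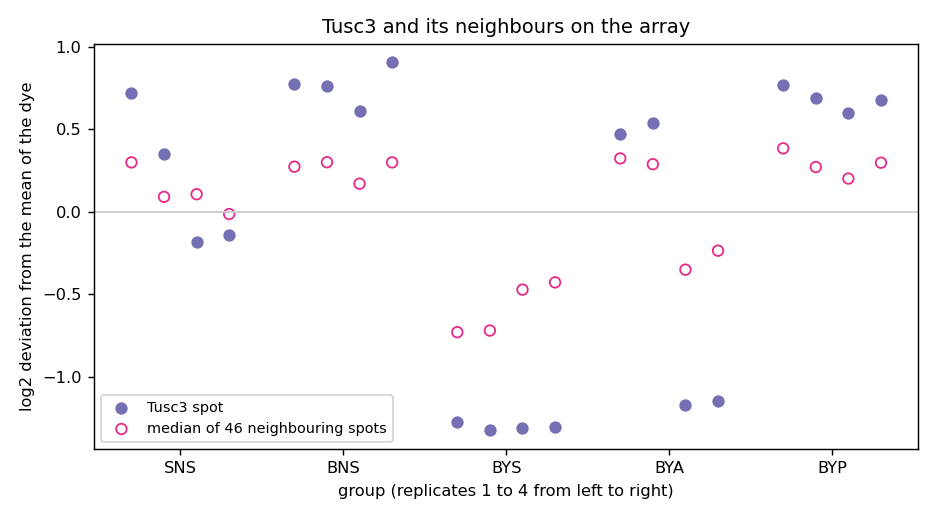
Deviation of the Tusc3 spot (filled) and the median deviation of the 46 neighbouring spots (open) from their means over the samples of a dye, in log2 units, for replicates 1 to 4 of each group. Both are lowest in the BYS samples and in BYA replicates 3 and 4.

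Between BYS and BNS the spot fell by 2.07 and its neighbours had a median difference of -0.83, with 97.8% of them lower in BYS. Over the 10703 complete spots in the highest class the median difference was -0.03. The low values of the neighbours were thus not shared by all spots of like brightness. Between BYP and BYS the spot rose by 1.98 and the neighbours by a median of 0.87, and between BYA and BYS by 0.98 and 0.54. After the median of all neighbours within the same window had been subtracted from every spot, Tusc3 was lower in BYS than in BNS by 1.60 ± 0.26. After subtraction of the median of the neighbours in the same class of level, an alternative chosen after seeing the data, the difference was -1.24 ± 0.22. The part of array position in the remaining difference was not tested.

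Over the 20 samples, the genes whose values followed Tusc3 most closely among 12493 genes with a value in every sample were Timm29 (Pearson r = 0.956), a mitochondrial import factor, Dlgap4 (r = 0.951), a postsynaptic scaffold protein, Mlycd (r = 0.95), which breaks down malonyl-CoA, App (r = 0.95), the amyloid precursor, and Phb1 (r = 0.941), a mitochondrial prohibitin. These correlations share arrays and dyes and are a description. App was read by a spot 286 rows and 21 columns away from Tusc3, and Dlgap4 by a spot 75 rows and 7 columns away. The spots for Timm29 and Mlycd lay 44 and 45 rows away, each at 6 columns, and a spot for Phb1 lay in the same row 2 columns away. App had the same split in BYA, with a mean of 4.05 on the array of replicates 1 and 2 and 2.70 on that of replicates 3 and 4, and its mean was 2.64 in BYS and 3.88 in BNS. App was picked for its likeness to Tusc3 over these same samples, so a like pattern follows from that choice. No other member of the family correlated with Tusc3 above r = 0.59, the value for Rpn2.

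Magt1, the alternative to Tusc3 in the OST complex, did not show the same pattern. Its group means were -0.93 ± 0.11 in BNS, -1.06 ± 0.24 in BYS, -1.297 ± 0.37 in BYA, -0.91 ± 0.21 in BYP and -1.19 ± 0.30 in SNS (SD, n = 4 each). BYS minus BNS was -0.13 ± 0.21 (SE), and all groups overlapped. The r with Tusc3 was 0.33. BYA replicates 3 and 4, on the array on which Tusc3 was low, read -1.39 and -1.78, below the other BYA samples at -1.05 and -0.97, and SNS replicate 4 read -1.55.

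The catalytic subunits passed the test in no comparison (limma). Stt3a read -1.01, -0.86, -0.77 and -0.89 in the BYA samples and -1.22, -1.44, -1.11 and -1.22 in the BNS samples, so that every BYA sample was above every BNS sample. The difference of 0.37 ± 0.22 (SE) did not pass the test (limma, adjusted p = 0.63). Stt3b also separated these groups. Its BYA samples lay between 0.13 and 0.31 and its BNS samples between -0.055 and -0.004, a difference of 0.27 ± 0.21 (limma, adjusted p = 0.75). At an unadjusted threshold both were called in this comparison by the methods' t-test, a heteroscedastic test per gene. By limma neither had an unadjusted p under 0.05, as 9.76% of all genes had. The share of all genes without overlap between these groups was not computed. In BYS, Stt3b ran from -0.12 to 0.66 and Stt3a from -1.61 to -0.79, both across the BNS values.

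**Figure D3:**
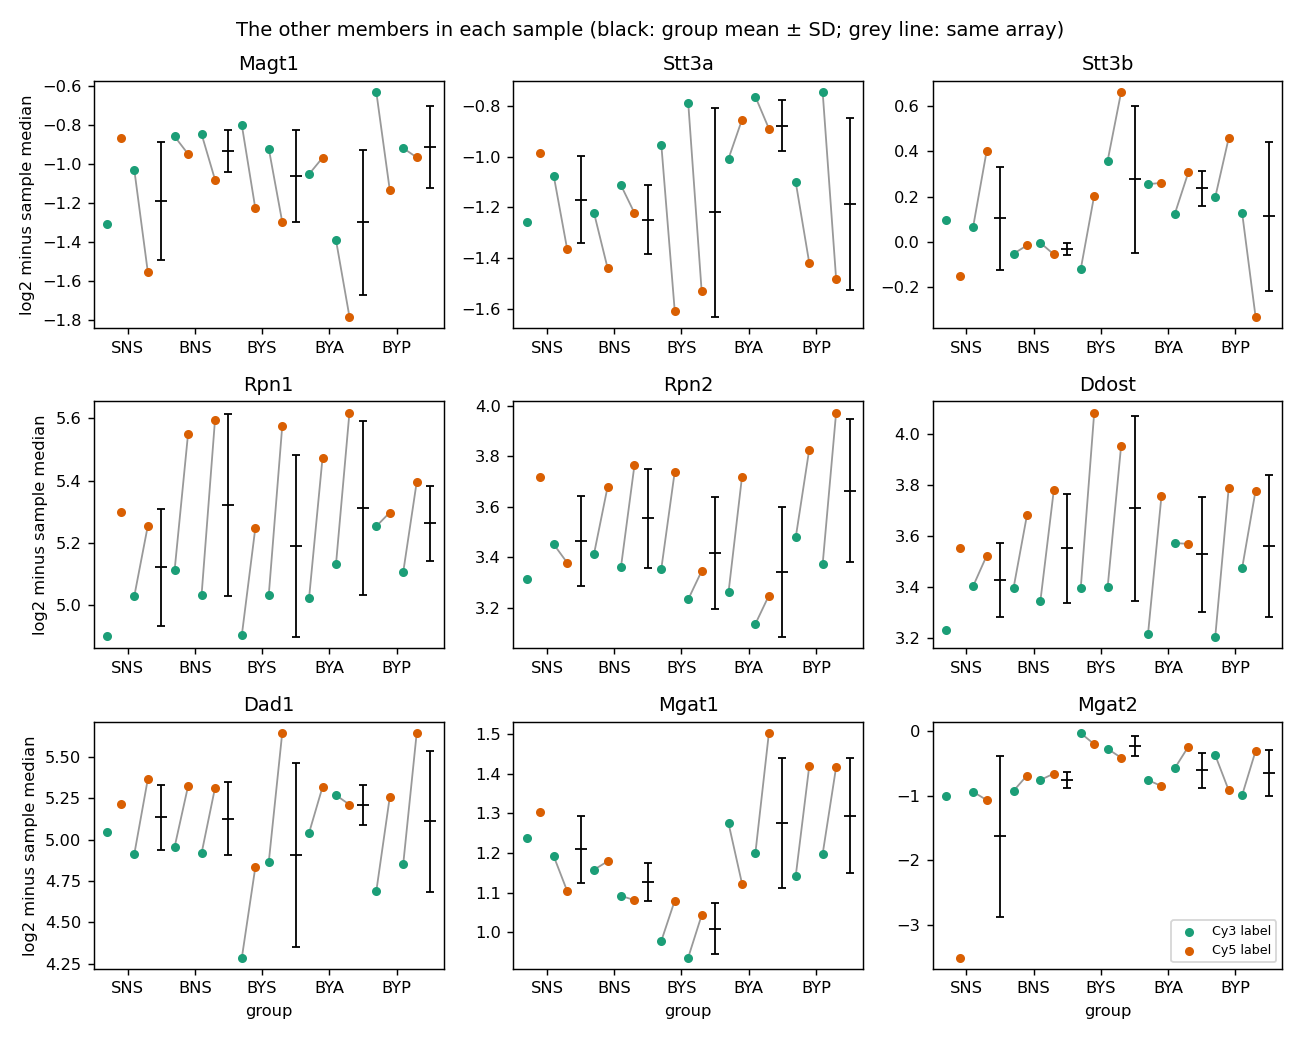
The other 9 members in each sample, as log2 intensity minus the sample median; points are coloured by dye label, grey lines join samples of 1 array, and black bars give the group mean ± SD (n = 4). Groups overlap for most members, Mgat1 is lowest in BYS, Mgat2 is highest in BYS on average, and SNS replicate 2 reads -3.50 for Mgat2.

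Among the shared subunits, Rpn1, a large subunit also called ribophorin I, was the one gene with repeated readings. It was read by 10 spots, in rows 16 to 436 of the array. Its mean over spots was 5.32 ± 0.29 in BNS and 5.19 ± 0.29 in BYS, a difference of -0.13 ± 0.14 (SE). The 10 spots did not give the same difference. One, in row 207, read 3.85, 4.25, 4.38 and 4.84 in the BYS samples and 5.37, 5.79, 5.28 and 5.85 in the BNS samples, and fell by 1.24. The other 9 spots ranged from -0.33 to 0.23, and 6 of these differences were below 0.

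The spot in row 207 lay among spots that were low in BYS. Its 57 neighbours of the same class of level had a median difference of -1.13 between BYS and BNS. BYP minus BYS was 1.13 for the spot and 1.15 for the neighbours, and BYA minus BYS was 1.01 and 0.95. A second spot of Rpn1, in row 61, read 4.14 and 4.34 in BYS replicates 1 and 2 and 4.09 and 4.55 in BYA replicates 3 and 4, against 4.61 to 5.18 in the other 16 samples. The most raised spot, in row 436, differed by 0.23 between BYS and BNS, beside 0.36 for its neighbours. Other spots of Rpn1 did not follow their neighbours: the differences in rows 16, 197 and 254 (column 12) were -0.07, -0.14 and 0.00 beside -0.35, -0.34 and -0.47.

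**Figure D4:**
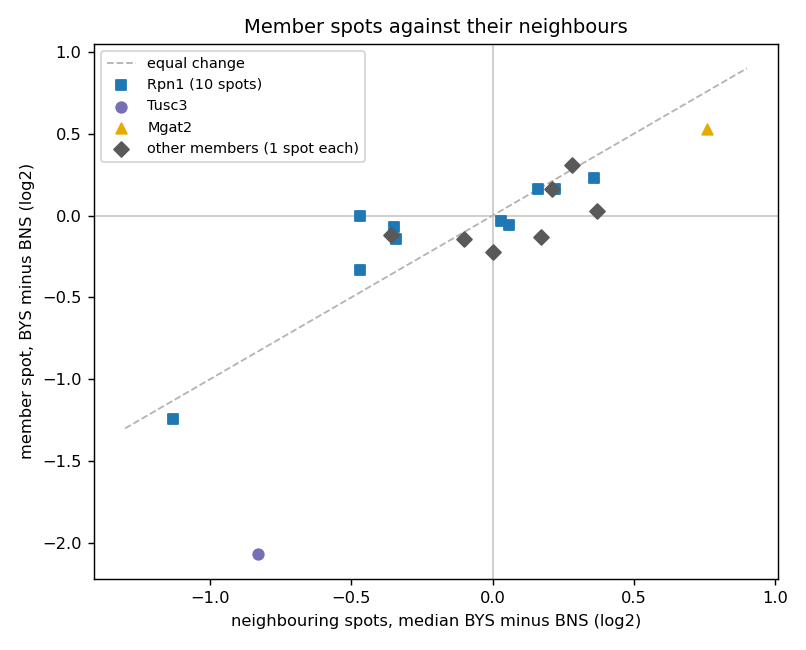
BYS minus BNS for each of the 19 member spots (vertical axis, log2) against the median of the same difference over its neighbours on the array (horizontal axis, log2); the dashed line marks equal change. One Rpn1 spot lies at -1.24 with neighbours at -1.13, and Tusc3 lies at -2.07 with neighbours at -0.83.

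Rpn2, or ribophorin II, averaged 3.55 ± 0.20 in BNS, 3.42 ± 0.22 in BYS, 3.34 ± 0.26 in BYA and 3.66 ± 0.28 in BYP (SD, n = 4 each). BYP minus BYA was 0.32 ± 0.16 (limma, adjusted p = 0.93). Ddost, another shared subunit, was at 3.71 ± 0.36 in BYS, 3.55 ± 0.21 in BNS and 3.43 ± 0.15 in SNS. BYS minus SNS was 0.29 ± 0.15 for Ddost (limma, adjusted p = 0.27). For each of these genes the Cy5 sample was the higher in 8 of 9 arrays, by up to 0.60 for Rpn2 and 0.69 for Ddost, more than any difference between groups in the model.

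Dad1, a small subunit first known as a defender against cell death, was uneven within BYS. Its BYS samples read 4.29, 4.83, 4.87 and 5.64, against 4.96, 5.32, 4.92 and 5.31 in BNS. The arrays of BYS differed by 0.69 in the mean, and those of BNS by 0.03. BYS minus BNS was -0.22 ± 0.21 (SE), and it was 0.13 ± 0.21 when replicates 1 and 2 of BYS were left out and -0.57 ± 0.20 when replicates 3 and 4 were left out. BYA minus BYS was 0.30 ± 0.21 (limma, adjusted p = 0.38). With BYS replicates 3 and 4 left out it was 0.65 ± 0.20 (limma, adjusted p = 0.046). With BYS replicates 1 and 2 left out it was -0.04 ± 0.21 (limma, adjusted p = 0.93), with the opposite sign.

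Mgat1, which starts the branching of the glycan, was lowest in BYS by a small margin. The BYS samples read 0.98, 1.08, 0.94 and 1.04. The BNS samples read 1.16, 1.18, 1.09 and 1.08, and the lowest of them, at 1.081, was level with the highest BYS sample, at 1.080. The SNS samples lay between 1.10 and 1.30, the BYA samples between 1.12 and 1.503 and the BYP samples between 1.14 and 1.42. No BYS sample was above any sample of another group, although the differences were small. The share of all genes that separate BYS in this way was not computed, and limma called 15.5% of all genes between BYS and BNS. BYS minus BNS was -0.12 ± 0.14 (SE), BYS minus SNS was -0.21 ± 0.13 (limma, adjusted p = 0.35), BYA minus BYS was 0.27 ± 0.14 (limma, adjusted p = 0.23) and BYP minus BYS was 0.29 ± 0.14 (limma, adjusted p = 0.17). The 54 neighbours of the Mgat1 spot had a median difference of -0.36 between BYS and BNS, and after subtraction of the local median BYS minus BNS was 0.12 ± 0.11, with the opposite sign. BYS minus SNS and BYA minus BYS also changed sign under it, to 0.055 and -0.122.

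Mgat2, which acts next and opens the way to complex glycans, had its highest mean in BYS. Its BYS samples read -0.03, -0.20, -0.27 and -0.41, and its BNS samples -0.92, -0.69, -0.76 and -0.66, with no overlap and a difference of 0.53 ± 0.47 (SE). The share of all genes without overlap was not computed for BYS against BNS or SNS. Of all genes 34% and 23.2% had an unadjusted p under 0.05 in these comparisons (limma). BYA ran from -0.85 to -0.24 and BYP from -0.99 to -0.31, both into the BYS range. The SNS samples read -1.01, -3.50, -0.94 and -1.07. In the model BYS exceeded SNS by 1.51 ± 0.45, a 2.85-fold difference between the groups (limma, adjusted p = 0.046). All 4 BYS samples lay above every SNS sample. The size of this difference rested on SNS replicate 2, the sample whose dye label is in doubt. Without that sample it was 0.77 ± 0.21 (limma, adjusted p = 0.022). The SE of BYS minus BNS also came from a fit that included SNS replicate 2. Without that sample Mgat2 was called between BYS and BNS (limma, adjusted p = 0.047). It was also called there with the compared groups alone and with the Cy3 samples alone.

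The call of Mgat2 between BYS and SNS lay near the threshold. It was lost on leaving out SNS replicate 4, any BNS or BYS replicate, BYA replicate 3 or BYP replicates 1 or 2, and the adjusted p ran from 0.022 to 0.081 over the 20 samples left out in turn. With slide as the random block the difference was 1.66 ± 0.50 (limma, adjusted p = 0.11). The 60 neighbours of the Mgat2 spot were higher in BYS too, with a median difference of 0.50 from SNS and 0.76 from BNS. Against BNS this was more than the 0.53 of the Mgat2 spot itself. After subtraction of the local median BYS minus SNS was 0.89 ± 0.37 (limma, adjusted p = 0.31). The neighbours in SNS replicate 2 had a median deviation of 0.17 from the mean of the Cy5 samples. This reference rests on the dye label that is in doubt. The genes most like Mgat2 over the 20 samples were Tnfaip1 (r = 0.95), Metrnl (r = 0.936), Mrpl21 (r = 0.931), Tmem183a (r = 0.902) and Supt7l (r = 0.9), and the spot for Metrnl was in the neighbouring column of the same row. These correlations are a description and share arrays, dyes and the low SNS replicate 2.

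The counts of members that passed the test in each comparison can be read against the share of all genes that did. Tusc3 is left out of the counts in comparisons with BYS, since those samples chose it. The medians over the 10 members still include Tusc3, so they are a description and draw on the values that chose the family. Between BYS and BNS, limma called 15.5% of the 13292 genes and 0 of the 9 other members, with 0 of them at an unadjusted p under 0.05. The median difference of all genes was 0.18 in that comparison and that of the 10 members, Tusc3 included, -0.12. These medians are not matched in level. Over complete spots the median difference was 0.42 in the lowest class of level and -0.03 in the highest. Between BYS and SNS 7.58% of genes were called and 1 of the 9, Mgat2, with medians of 0.05 over all genes and 0.01 over the 10 members. Between BYP and BYS limma called 9.68% of genes and 0 of the 9, with 1 of them, Mgat1, at an unadjusted p under 0.05, as were 29.8% of all genes, and the medians were -0.15 and 0.11. Between BYA and BYS limma called 8.67% of genes and 0 of the 9, with 0 at an unadjusted p under 0.05, and the medians were -0.11 and 0.04. The methods' t-test after Benjamini-Hochberg adjustment called 0 of the 9 in each of these 4 comparisons.

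In the comparisons without BYS few genes of the array passed. The share was 0.241% for BYA against BNS, 0.0301% for BYP against BNS, 0.00752% for BNS against SNS, 0.0226% for BYA against SNS, 0.015% for BYP against SNS and 0.0301% for BYP against BYA. In each of them limma called 0 of 10 members. At an unadjusted p under 0.05 there was 1 member in 5 of these 6 comparisons, namely Tusc3 for BYA against BNS and for BYP against BYA, and Mgat2 for the 3 comparisons with SNS. For BYP against BNS there were 0. Over all genes the share with an unadjusted p under 0.05 ran from 4.62% to 15.8% in these 6 comparisons, so that 1 of 10 members was close to the share of all genes. The methods' t-test after Benjamini-Hochberg adjustment also called 0 members in these 6 comparisons.

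Between BYS and BNS the other genes of the pathway were called about as often as genes in general. Of 83 further genes in lists of OST subunits, dolichol-linked precursor synthesis, glycan trimming in the endoplasmic reticulum and Golgi processing, 75 were measured, and 4 rose and 5 fell in BYS against BNS, where 8.88% of all genes rose and 6.62% fell. Their median difference was 0.14, beside 0.18 for all genes. Of the further OST subunits only Ostc and Krtcap2 were measured, and limma called 0 of 2 in any comparison, with 1 at an unadjusted p under 0.05 for BYA against BYS. The 15 measured genes of glycan trimming and quality control gave 0 calls in any comparison by limma, and 5 had an unadjusted p under 0.05 between BYS and BNS, as had 34% of all genes.

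Among 30 measured genes of dolichol-linked precursor synthesis, 2 rose and 5 fell between BYS and BNS. The largest differences belonged to mannosyltransferases that extend the chain on the lipid, namely Alg9 (-1.18 ± 0.16, SE, limma, adjusted p = 0.00019), Alg11 (-0.92 ± 0.22, limma, adjusted p = 0.010) and Alg3 (-0.81 ± 0.19, limma, adjusted p = 0.012). Each was measured by 1 spot, and their neighbours had median differences of -0.70, -0.69 and -0.64. Alg9 was higher in BYA and BYP than in BYS, by 0.96 ± 0.16 and 1.00 ± 0.16 (limma, adjusted p = 0.0010 and 0.00093). After subtraction of the local median, 0 genes of this list rose and 1 fell between BYS and BNS.

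In the Golgi list 2 of 28 genes rose between BYS and BNS and 0 fell. They were St3gal6, a sialyltransferase (0.99 ± 0.27, limma, adjusted p = 0.021), and Mgat5b, a branching enzyme of the brain (0.63 ± 0.20, limma, adjusted p = 0.038). Mgat5b was read by 2 spots that differed by 1.11 and 0.16, beside neighbours at 0.67 and 0.27. Of 13 measured magnesium transport genes limma called 0 between BYS and BNS, with 2 at an unadjusted p under 0.05, and Cnnm2 was lower in BYA than in BYS (-0.63 ± 0.19, limma, adjusted p = 0.049).

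Single genes of the machinery next to OST in the endoplasmic reticulum were lower in BYS, at shares that can be set against the 6.62% of all genes that fell. Of 24 genes of the translocon and signal peptidase 3 fell and 0 rose between BYS and BNS, namely Srp68 of the signal recognition particle (-1.42 ± 0.16, limma, adjusted p = 6.8e-05), the translocon-associated Ssr3 (-0.82 ± 0.16, limma, adjusted p = 0.0027) and Sec63 (-0.63 ± 0.20, limma, adjusted p = 0.039). Of 21 genes of the unfolded protein response 4 fell and 0 rose, the largest changes being those of the chaperone Hspa5 (-1.36 ± 0.31, limma, adjusted p = 0.0086), the co-chaperone Dnajb9 (-1.298 ± 0.23, limma, adjusted p = 0.0015) and the disulfide isomerase Pdia6 (-1.29 ± 0.15, limma, adjusted p = 8.3e-05). The neighbours of these 6 spots had median differences between -0.77 and -0.45.

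Against BYS, 9 of 21 genes of the unfolded protein response rose and 0 fell in BYP, where 5.36% of all genes rose and 4.33% fell. In BYA 7 rose and 0 fell, where 4.99% of all genes rose and 3.69% fell. Hspa5 was higher by 1.70 ± 0.31 in BYP and by 1.18 ± 0.31 in BYA (limma, adjusted p = 0.0025 and 0.025). These comparisons share the BYS samples with the one against BNS. After subtraction of the local median the counts were 3 lower and 1 higher for BYS against BNS, 5 higher for BYP and 3 higher for BYA, and 9.11%, 3.26% and 2.11% of all genes were called in these comparisons. With the median taken over neighbours in the same class of level, they were 2 lower and 1 higher, 4 higher and 1 lower, and 0 in either direction, beside 5.45%, 3.03% and 2.18% of all genes.

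**Figure D5:**
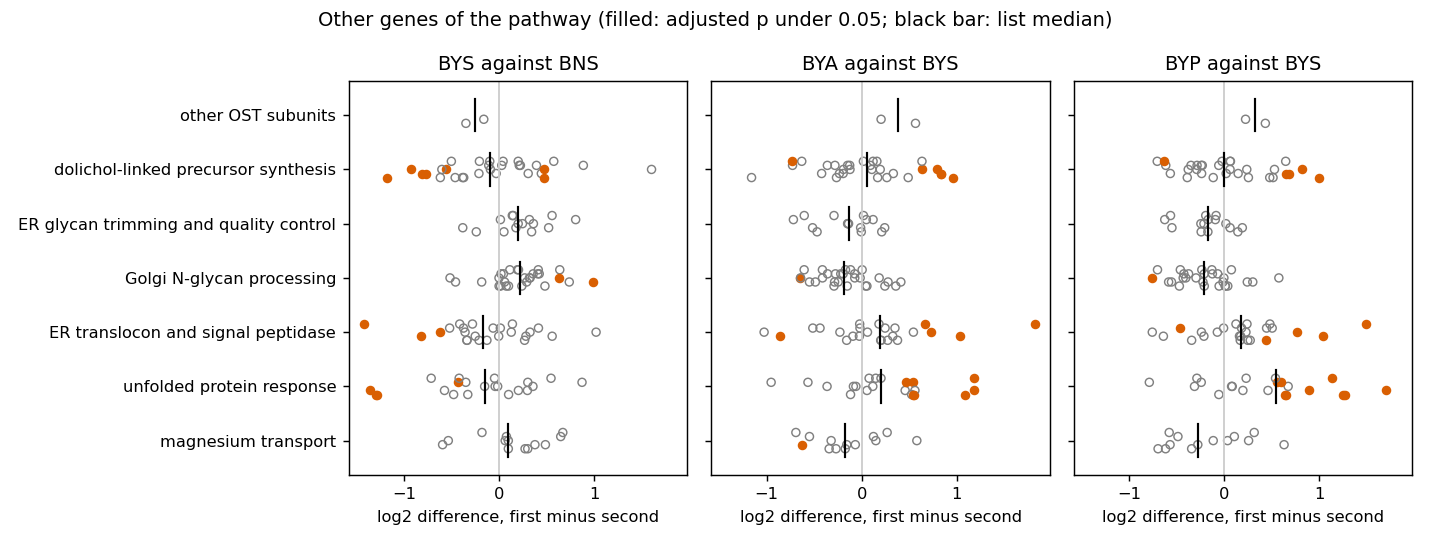
Differences (log2, first group minus second) of the other pathway genes in 3 comparisons that share the BYS samples, by list; each point is a gene, filled where the adjusted p was under 0.05, and the black bar is the list median. Called genes of the unfolded protein response lie below 0 for BYS against BNS and above 0 for BYA and BYP against BYS.

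Some markers of cell types also differed between groups, in both directions. The mean level of 9 measured oligodendrocyte markers ran from -0.19 to 0.73 in BYS and from -1.60 to -0.32 in BNS, with 3 of 9 called higher, and the 5 measured blood markers averaged 3.79 to 4.12 in BYA, 2.96 to 4.09 in BYS and 2.67 to 3.64 in SNS, BNS and BYP. Of 10 measured markers of other hypothalamic nuclei 3 were called higher in BYS than in BNS, with means of 0.25 to 0.51 and -0.25 to 0.24. Called lower in BYS than in BNS were 1 of 13 arcuate markers, Agrp (-0.89 ± 0.28, limma, adjusted p = 0.042), 1 of 10 neuron markers, Elavl4 (-0.59 ± 0.18, limma, adjusted p = 0.039), and 1 of 6 markers of oligodendrocyte precursors, Olig2 (-1.08 ± 0.19, limma, adjusted p = 0.0015), while another of these 6, Gpr17, was higher (0.86 ± 0.17, limma, adjusted p = 0.0038). Of 8 endothelium and pericyte markers Kdr and Rgs5 were lower and Flt1 was higher. The mean over the 10 neuron markers lay between 2.48 and 3.00 in all samples. Their part in the values of the glycosylation genes was not tested.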

How the data were processed

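RNA of each sample was hybridized to 2-colour Agilent arrays, with 1 rat per channel. The deposited values are spot intensities on a linear scale, 1 column per sample, from scans that the authors read with Agilent Feature Extraction 10.7.3.1, per the submitters' notes. No source used here describes their background correction, spot filter or normalization. The reason for missing values and a spot's height above background are therefore unknown. Spots were named through the platform annotation and RefSeq. Intensities were taken to log2, complete spots of a gene were averaged (for 799 genes with none, the most complete spot was taken), and the sample median was subtracted. Genes needed at least 3 values in each group, which left 13292. Group differences were fitted with limma 3.58.1 in R 4.3.3 over all 20 samples, with dye as a term and array as a random block (consensus correlation 0.436), and p-values were adjusted by Benjamini-Hochberg over all genes of a comparison, with a threshold of 0.05. The procedure was tested on simulated data with an array effect. Those data held no slide, dye or position effects, so the test does not cover them. Rats were the replicates. No source used here gives their litters, so litter was not a term and p-values assume that rats are independent.

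Named genes were all 10 members, at most 3 called genes per further list and comparison, and the 5 genes closest to Tusc3 and to Mgat2. The members and lists were chosen with earlier results of these data known. Replicate numbers did not pair the samples.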

Additional observations from a re-analysis of the deposited data

Results flagged for a closer look

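Mgat2 in SNS replicate 2 read -3.503 (log2, sample median subtracted), against -1.07 to -0.94 in the other SNS samples. Its gap to the nearest SNS sample was 0.95 of the range of the group, past Dixon's critical value for 4 samples. This was 1 of 50 member and group combinations examined, and chance gives about 1 in 20. The sample is the one whose dye label is in doubt. The neighbours of the spot were not low in it against the mean of the Cy5 samples, a reference that rests on that label. The cause was not tested.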

How the results depend on the processing

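Over 43 alternatives, 4029 of 4300 member values kept their direction and side of the threshold, 28 lost and 20 gained a call with the same direction, and 223 that were uncalled in both changed sign. The counts below include Tusc3, whose BYS values chose the family, and are a description there. The number of called members was 1 for BYS against BNS, 2 for BYS against SNS, 1 for BYP against BYS and 0 elsewhere. With slide as the random block it was 0 in each of the first 3, and 301 genes in all (2.26%) were called between BYS and BNS in place of 2060. Between BYS and BNS it was 2 with the compared groups alone or Cy3 samples alone (4816 and 4342 genes in all), and 3 with the methods' t-test unadjusted. Between BYS and SNS it was 1 with the compared groups alone, with no filter on missing values, with either local trend removed or with either BYS array left out, and 0 with Cy5 samples alone or the methods' t-test after Benjamini-Hochberg adjustment. Between BYA and BYS it was 1 with no array block, with SNS replicate 2 taken as Cy3, with the methods' t-test unadjusted, without the array of BYS replicates 3 and 4 (Dad1) and without that of BYA replicates 3 and 4. Between BYP and BYS it was 2 with no array block or the unadjusted t-test, and 0 with Cy5 samples alone. The unadjusted t-test gave 2 for BYA against BNS (Stt3a and Stt3b) and 1 for BYA against SNS (Stt3a). For scale, the limma share of all genes at an unadjusted p under 0.05 was 34% for BYS against BNS and 25.5% for BYA against BYS. That share was 29.8% for BYP against BYS, 9.76% for BYA against BNS and 15.8% for BYA against SNS. Leaving out each sample in turn gave 1 to 2 members for BYS against BNS and for BYS against SNS, 0 to 1 for BYA against BYS, 1 for BYP against BYS and 0 elsewhere. The cause of these changes was not tested. Of all genes between BYS and BNS, 4736 were called with no array block, 4048 with SNS replicate 2 taken as Cy3, 1339 with no missing-value filter, 1211 and 724 with the local trends removed and 434 by the adjusted t-test. With the replicate block BYA against BYS gave 1 member, Tusc3, and 1096 genes in place of 1153; samples of the same number in other groups correlated at a median r of 0.61, against 0.58 for another number with the same dye, so the numbers follow the dye. The second local trend, the arrays of BYA and of SNS left out and 3 further centrings were chosen after seeing the data. A single spot per gene, 2 arrays per group and 1 slide per group limit the precision.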
